A study of Drosophila melanogaster with 37 samples.

Results

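The pair-rule genes analysed were even skipped (eve), hairy (h), odd skipped (odd), paired (prd), odd paired (opa), fushi tarazu (ftz) and the sloppy paired genes slp1 and slp2. They were taken by symbol from the study's transcription unit (TU) annotation, which found 8 of 8 among 17698 annotated genes. A TU is a stretch of 1 strand that the study treated as a unit of transcription, with 1 or more genes in it. In each of these 8 TUs the pair-rule gene was the only gene, against 91.6% of the 12934 TUs on the X, 2L, 2R, 3L and 3R that hold a protein-coding gene. Those 12934 are called coding TUs below and serve as the reference for every share and percentile.

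The series measured nascent RNA on RNA polymerase II (Pol II) by mNET-seq, which immunoprecipitates the polymerase and sequences the RNA it holds. Its 37 samples came from Drosophila melanogaster embryos at stage 15, sorted into males and females, with 6000 embryos in each preparation, so each sample is a pool. The mothers carried either a control RNAi or UAS-mof RNAi, which depletes the maternal product of mof, a histone acetyltransferase gene of dosage compensation. What drives the UAS construct is not given in the sources used here. Total Pol II was captured in 14 samples, Pol II phosphorylated at serine 5 of its C-terminal domain in 15 and at serine 2 in 8, in 12 groups of 2 to 4 samples. Coverage of these samples was not analysed here, so no level of transcription is given for any gene, depth is unknown, and the markers of the labelled embryos could not be checked. All values below describe annotated intervals of build dm6, with 1-based positions, and carry no replicate error. Since the genes were chosen by name and the genome is a census, counts are set beside the reference share without a test.

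Pair-rule genes are the tier of the segmentation cascade between the gap genes, which divide the egg into broad regions, and the segment polarity genes, which pattern each segment. Most are transcribed in stripes at alternating segment positions of the early embryo, and loss of such a gene removes or transforms alternating pattern elements. All 8 encode transcription factors, and individual stripes of several are driven by separate enhancers that lie in the DNA beside the gene. Stage 15 falls well after the stripes are laid down, at a time when several of these genes have later roles, for example in the nervous system.

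The 8 genes were of ordinary length and lay far from other protein-coding genes. Their median TU measured 2439.5 bp, against 2229.5 bp for coding TUs (interquartile range 1205 to 5203 bp, n = 12934), and 53.6% of coding TUs were shorter. Their median distance to the nearest coding TU on either strand was 9740 bp, against 89 bp in the reference. This median equals the distance between slp1 and slp2, which counts for both genes. The nearest coding TU was at least 5255 bp away for each of the 8. A distance of at least 5000 bp, a limit set after these values were seen, was met by 8 of 8 members and by 4.89% of coding TUs. The 632 coding TUs that met it had a median length of 2306 bp.

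**Figure D1:**
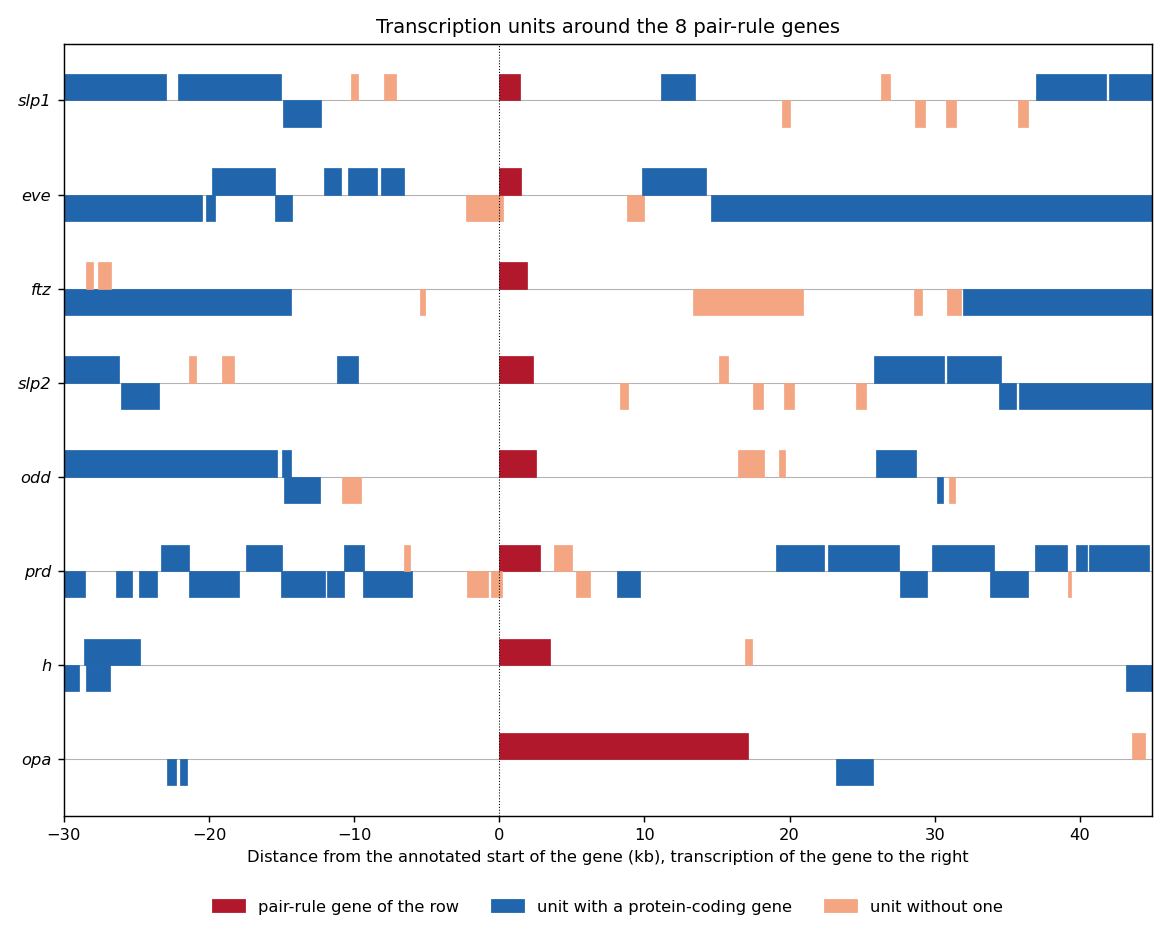
Each row shows the TUs around 1 pair-rule gene, to scale, against the distance in kb from its annotated start, with its direction of transcription to the right. Boxes above the line lie on the gene's own strand and boxes below on the opposite strand; red is the gene of the row, blue a TU with a protein-coding gene, orange a TU without one, and boxes that reach past the window are cut at its edge. No blue box comes closer than 5255 bp to the red box of its row, and orange boxes overlap the starts of eve and prd.

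Of the 8 genes, 4 lay on 2L, which held 19.4% of coding TUs. The others were eve on 2R (20.4% of coding TUs), h on 3L (19.7%), and opa and ftz on 3R (24.9%), and 0 of 8 lay on the X (15.6%). With no member on the X, none of the 8 belongs to the chromosome that dosage compensation acts on. The 4 on 2L included the slp1 and slp2 pair, with odd 218918 bp away from slp1 across 43 other TUs. prd lay 8243809 bp from slp2. On the plus strand were 6 of 8 genes, against 49.7% of coding TUs, with odd and prd on the minus strand.

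Of the genes usually called primary pair-rule genes, whose stripes respond to maternal and gap factors, h had the widest surroundings. h (FBgn0001168), a basic helix-loop-helix repressor that acts with Groucho, occupied 3L from 8675759 to 8679253, plus strand, in 3495 bp with 2 transcripts. RefSeq lists it under the newer symbol hry. No other TU lay within 10 kb of h on either strand, where the reference median was 6. Upstream the first TU was Pex7, a peroxisomal import receptor gene, at 24747 bp. Downstream the first coding TU was SrpRbeta, which encodes a subunit of the signal recognition particle receptor, at 39695 bp. A single non-coding TU, CR44526 of 489 bp, lay in between, 13449 bp beyond the end of h. Its distance to the nearest coding TU exceeded that of 99.2% of coding TUs, the highest rank of the 8.

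eve sat in a smaller interval and was overlapped at its start. eve (FBgn0000606), a homeodomain repressor, spanned 1477 bp on 2R from 9979319 to 9980795, plus strand, with 1 transcript. Its coding neighbours were CG12134 at 6538 bp upstream and TER94, the fly VCP ATPase, at 8363 bp downstream. The space between these neighbours measured 16378 bp, of which eve filled 9.02%. CR43948, which RefSeq classes as an antisense RNA, ran on the opposite strand from 9976996 to 9979584. It shared 266 bp with eve, 18.0% of the eve TU, and its start lay 265 bp inside eve.

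odd (FBgn0002985), a zinc finger repressor, measured 2533 bp on 2L from 3604224 to 3606756, minus strand, with 1 transcript. Its nearest coding TU was Dot on the opposite strand, 12340 bp upstream. Its relative sob lay 23454 bp downstream on the same strand, with no coding TU between them. A further relative, drm, followed 29589 bp from sob on the plus strand, with 1 coding TU between them, so that drm and sob pointed towards each other. bowl, the other relative listed, lay on the other side of odd. It was 223276 bp from drm, with odd and sob among the 34 coding TUs between. The TUs of these relatives measured 2757 bp for sob, 9177 bp for drm and 12422 bp for bowl, all longer than odd.

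ftz was the only coding TU between its Hox neighbours in the Antennapedia complex. ftz (FBgn0001077), which encodes a homeodomain protein and derives from a Hox gene, spanned 1921 bp on 3R from 6864324 to 6866244, plus strand, with 1 transcript. Scr was the coding neighbour upstream at 14342 bp and Antp the coding neighbour downstream at 30008 bp, both on the minus strand. The space between them measured 46271 bp, of which ftz filled 4.15%, and it also held 4 non-coding TUs, the longest of which was CR44931 at 7601 bp. It was also short beside them, since the Scr TU measured 26862 bp and the Antp TU 102976 bp. The nearest TU of any kind was CR45900, a non-coding TU of 354 bp, 5131 bp upstream.

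prd had the most crowded surroundings of the 8. prd (FBgn0003145), which encodes a protein with a paired domain and a homeodomain and acts later in the hierarchy than h, eve or ftz, had a TU of 2833 bp on 2L, minus strand, from 12082995 to 12085827, with 2 transcripts. Within 50 kb lay 31 other TUs, more than for 92.7% of coding TUs, while the other 7 genes had 10 to 18 and the reference median was 18. Its coding neighbours were CG14947 at 5255 bp downstream and Pex19, a chaperone gene of peroxisomal membrane proteins, at 5994 bp upstream. Both distances were the shortest of the 8 genes on their side. In this space of 14082 bp lay 4 non-coding TUs. CR44592, classed as an antisense RNA, shared 179 bp with prd (6.32% of the prd TU), starting 178 bp inside it on the opposite strand. CR44590 lay 920 bp downstream and CR44593 lay 793 bp upstream.

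opa (FBgn0003002), a zinc finger factor of the Zic family that is expressed broadly rather than in stripes and acts on the timing of the other pair-rule genes, was the exception in length. Its TU covered 17167 bp on 3R from 4852813 to 4869979, plus strand, longer than 90.9% of coding TUs. The annotation gave it 1 transcript and RefSeq 2, over the same interval. Its coding neighbours were CG14659 at 21515 bp upstream and laf at 6025 bp downstream, both on the opposite strand. No non-coding TU lay between them, which held for opa alone among the 8. opa filled 38.4% of the space between its coding neighbours, against 4.15% to 20.1% for the other 7.

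**Figure D2:**
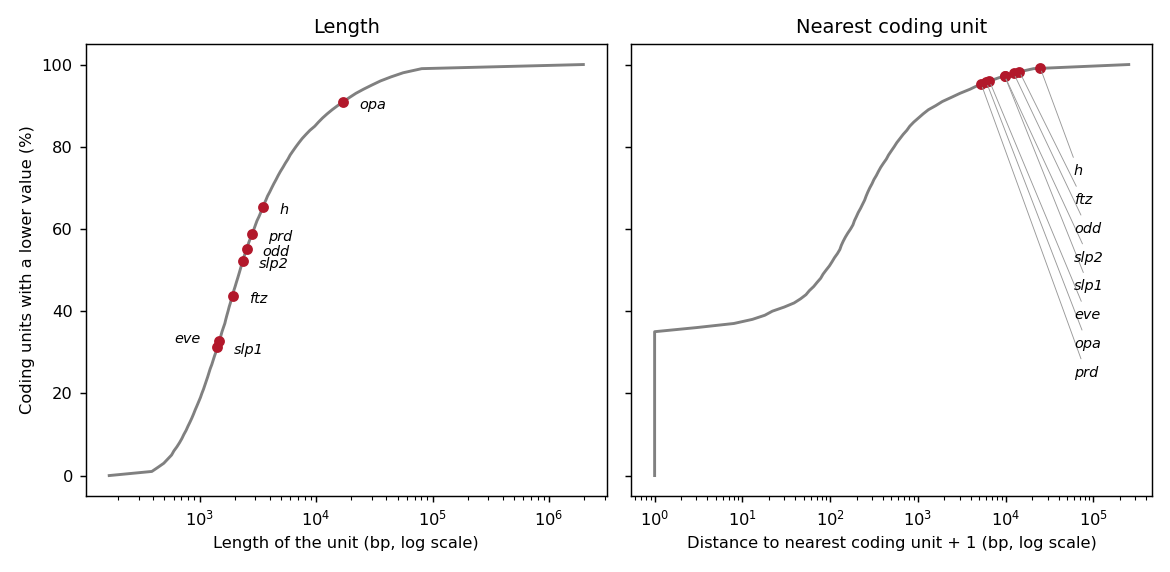
The grey curves give the percentage of the 12934 coding TUs with a lower value, against TU length (left) and against distance to the nearest coding TU plus 1 (right), both in bp on log axes. Red points are the 8 pair-rule genes: in length they spread from 31.2% for slp1 to 90.9% for opa, and in distance they lie between 95.3% for prd and 99.2% for h.

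slp1 and slp2 formed a tandem pair with nothing annotated between them. Both encode forkhead transcription factors that are close relatives, act largely together and later have segment polarity functions. slp1 (FBgn0003430) spanned 1425 bp on 2L from 3825675 to 3827099 and slp2 (FBgn0004567) 2346 bp from 3836840 to 3839185, both on the plus strand with 1 transcript each. slp1 was the shortest of the 8 TUs, and slp2 was 921 bp longer, a ratio of 1.65. The end of slp1 and the start of slp2 were 9740 bp apart, and the starts 11165 bp apart. From the first to the last base the pair covered 13511 bp, of which the TUs themselves made up 27.9%.

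The spacing of the pair was wide for adjacent genes on the same strand. In the reference, 4008 pairs of coding TUs were adjacent on the same strand with no TU between, at a median distance of 437.5 bp (interquartile range 202 to 1210 bp). The slp1 to slp2 distance exceeded that of 94.4% of them, and 226 pairs were at least as far apart, the slp pair included. Each of the pair was the nearest coding TU of the other, so the same 9740 bp counts for both. Leaving the partner aside, slp1 was 12264 bp from CG3407 on its upstream side and slp2 was 23482 bp from CG3964 on its downstream side. Together the pair sat in 49257 bp with no other coding TU. This space also held 7 non-coding TUs, with CR44077 and CR44076 upstream of slp1 and 5 downstream of slp2, the nearest of which was CR44983 at 5944 bp.

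**Figure D3:**
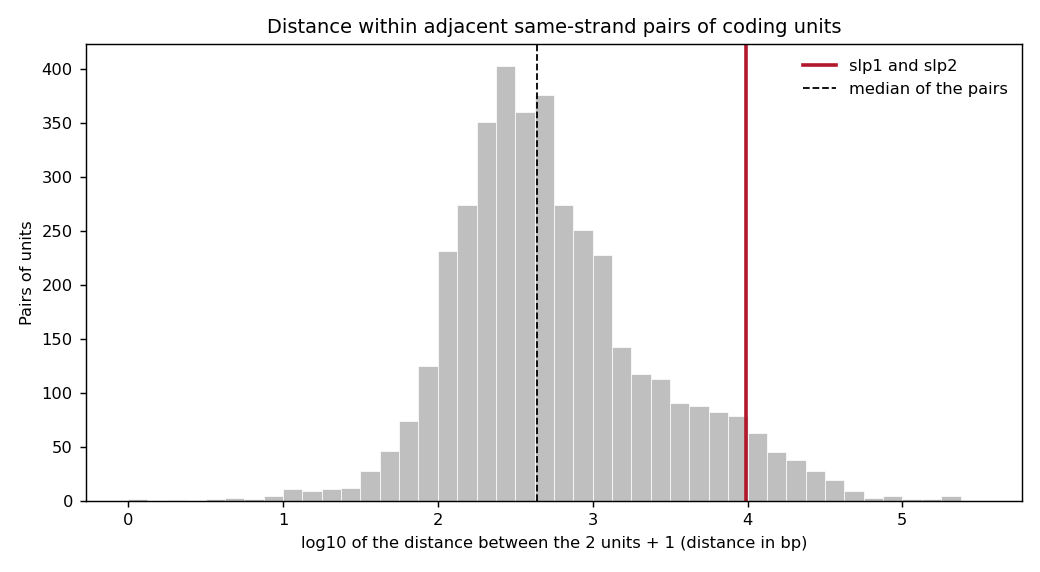
Bars count adjacent same-strand pairs of coding TUs with no TU between them (n = 4008 pairs), by log10 of their distance in bp plus 1. The red line marks slp1 and slp2 at 9740 bp and the dashed line the median of 437.5 bp.

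Other neighbouring relatives of the segmentation cascade took several orientations. odd and sob lay on the same strand, as slp1 and slp2 do, but 23454 bp apart. The homeobox genes en and inv, of the segment polarity tier, faced each other with their ends at 14310 bp. The prd relatives gsb and gsb-n faced each other with their starts at 9632 bp. No TU lay between en and inv or between gsb and gsb-n. The pairs most like slp1 and slp2 were sought among 150 adjacent same-strand pairs of isolated single-gene coding TUs (isolation is defined below), by the summed absolute log2 differences of both lengths and the distance. The 3 nearest were CG32237 with CG13707 on 3L (3024 and 2318 bp, 9329 bp apart, summed difference 1.17), Osi6 with Osi7 on 3R (2474 and 2690 bp, 11812 bp apart, 1.27) and Ady43A with Or43a on 2R (2753 and 2074 bp, 8110 bp apart, 1.39). slp1 itself, at 1425 bp, is under the length limit of isolation, so pairs with a partner as short as slp1 were not in that search. In a search added after the data were seen, among 551 such pairs clear of other TUs by 500 bp at any length, the 3 nearest were CG5791 with CG13407 on 3R (1427 and 2177 bp, 14912 bp apart, 0.72), Ran-like with CG7804 on 3L (1007 and 1914 bp, 10285 bp apart, 0.87) and Or82a with CG1092 on 3R (1473 and 1547 bp, 8325 bp apart, 0.87).

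Isolation by a rule of length and distance held for 4 of the 8 genes. A TU counts as isolated when it is at least 2000 bp long and both of its ends are more than 500 bp from any other TU. Another TU that lies inside it, away from both ends, is allowed. The 4 genes were h, odd, opa and slp2, against 10.4% of coding TUs. ftz and slp1 had no TU within 500 bp but were shorter than 2000 bp, as 45.6% of coding TUs were. Without the length limit 6 of 8 were clear, against 19.0%. In these 6 the nearest TU of any kind was at least 5131 bp away, and a distance of at least 5000 bp held for 3.06% of coding TUs. eve and prd were not isolated at any length, since their antisense TUs overlapped their starts.

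Opposite-strand starts within 500 bp of the start of any of the 8 genes lay inside the gene, not upstream of it. A divergent start, an opposite-strand start 0 to 500 bp upstream, was found for 0 of 8 genes and 27.3% of coding TUs. With every other coding TU at least 5255 bp away, only a non-coding TU could have given these genes a divergent start. The share among coding TUs equally far from others was not counted. In eve and prd the opposite-strand start lay inside the gene and within 500 bp of its start, an arrangement noticed in these genes before it was counted, which 2.37% of coding TUs had. Opposite-strand overlap of any kind was present in these same 2 of 8, against 39.8% of coding TUs. Among the 632 coding TUs at least 5000 bp from the nearest coding TU, which include the 8, it was present in 6.17%. An opposite-strand start inside the TU and within 500 bp of its start was present in 1.27% of the 632. Signal summed over both strands would therefore combine eve with CR43948 over 266 bp and prd with CR44592 over 179 bp, and for the other 6 genes no TU shares bases on the opposite strand.

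The single nearest TU of a pair-rule gene was mostly non-coding. The nearest TU had no protein-coding gene for 7 of 8 genes, opa being the exception, against 13.2% of all coding TUs and 58.1% of the 632 coding TUs at least 5000 bp from the nearest coding TU. Between the coding neighbours of the 8 genes lay 21 non-coding TUs, from 0 at opa to 5 at slp2. The median per gene was 2.5, against 0 for all coding TUs and 1 for the 632. The lengths of the 21 ran from 354 to 7601 bp with a median of 765 bp, and 14 of the 21 lay on the strand opposite to the pair-rule gene. Strand and class of such TUs were not counted for the reference. RefSeq classed 19 as lncRNA, and the other 2 were the antisense RNAs at eve and prd. Whether any of these is transcribed at stage 15 was not analysed here.

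The distance to the next coding TU was large on both sides of the genes. Its median was 12302 bp upstream and 16597 bp downstream, against reference medians of 404 and 165 bp. Space free of any TU was smaller, with medians of 8339.5 bp upstream and 8534.5 bp downstream against 364 and 142 bp, and it was 0 bp upstream of eve and prd and 920 bp downstream of prd. The downstream distance was the larger for eve, h, odd, ftz and slp2, 5 of 8 genes, against 29.6% of coding TUs. Each upstream distance exceeded that of at least 88.2% of coding TUs (prd) and each downstream distance that of at least 88.7% (prd). Within 10 kb the genes had a median of 1.5 other TUs against 6 in the reference, and within 50 kb 14.5 against 18.

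Few transcripts were annotated for these genes. A single transcript was given for 6 of 8, against 47.1% of coding TUs, and h and prd had 2, for 10 in all. The reference median was 2. For 8 of 8 the start and end equalled those of the RefSeq gene, so each start is the outermost annotated start and was not measured in these embryos. How often other coding TUs equalled their RefSeq gene was not counted.

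run and Ten-m, listed as pair-rule genes outside the 8, differed from them and from each other. The Runt-domain gene run, whose stripes help to position those of eve and ftz, lay on the X in a TU of 6652 bp with 3 transcripts. It had a divergent start at 37 bp, from a non-coding TU, while its nearest coding TU was 13606 bp away. Ten-m, a teneurin gene once described as a pair-rule gene, had a TU of 114820 bp that merged 3 genes, and it was overlapped by a coding TU.

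The other tiers of the cascade are given by count for comparison. At least 5000 bp to the nearest coding TU was found for 3 of 6 gap genes, 4 of 12 segment polarity genes, 4 of 8 Hox genes and 0 of 6 maternal genes. Since this limit was set just under the lowest value of the pair-rule genes, all 8 of them pass by construction, and the count does not set them apart. The gap gene hb missed the limit at 4792 bp. The median TU of the gap genes, 2567.5 bp, was the nearest of these lists to that of the pair-rule genes, with a median distance of 4946 bp to the nearest coding TU. Among them hb, kni and tll were isolated, with TUs of 6843, 3049 and 2086 bp. The shortest gap gene TU was hkb at 1632 bp, and Kr was overlapped by a coding TU on the opposite strand. Segment polarity genes had longer TUs, with a median of 9289 bp and a range from 2680 bp for gsb to 41709 bp for nkd. Their isolated members were en, inv, wg, ptc and gsb, and wg, the Wnt ligand, was 17448 bp from its nearest coding TU. Hox genes had a median distance of 8654.5 bp to the nearest coding TU, but no Hox gene lay near that value. In 4 of 8 the distance was 960 to 2967 bp, below every pair-rule gene, and in the other 4 it was 14342 to 30008 bp. The median Hox TU was 30563 bp. Isolation held for 6 of 8 Hox genes (lab, pb, Dfd, Ubx, abd-A and Abd-B) and for 4 of 8 pair-rule genes. Every Hox TU met the length limit, and without that limit 6 of 8 genes were clear in each list. The isolated genes ptc and Abd-B were overlapped on the opposite strand away from their ends. The Hox TUs ranged from 10593 bp for Dfd to 102976 bp for Antp. The differences between these lists were not tested.

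**Figure D4:**
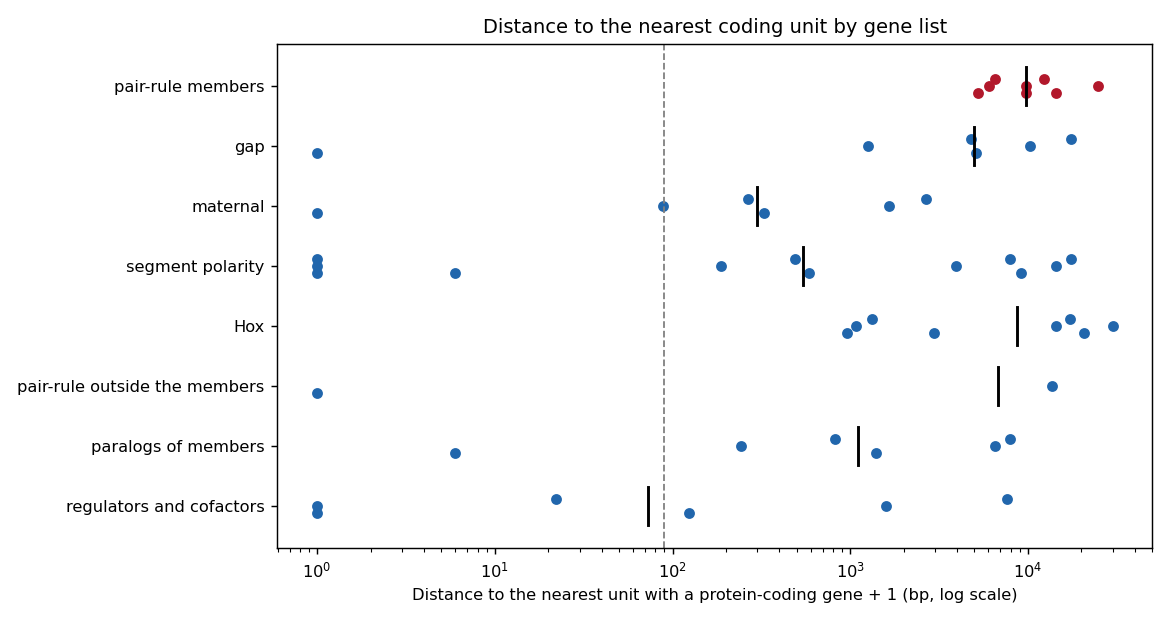
Each point is 1 gene, placed by its distance to the nearest coding TU plus 1 in bp on a log axis; black bars are list medians and the dashed line is the reference median of 89 bp. The 8 pair-rule genes, in red, lie between 5255 and 24747 bp. Each other list has at least 1 gene below 5000 bp, a limit set just under the lowest pair-rule value after it was seen.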

How the data were processed

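The authors deposited a TU annotation that, per the file headers, is a GFF version 2 file from rtracklayer 1.48.0, with start, end, strand, gene and transcript identifiers of 15991 TUs on dm6. The merging of genes is not described in the sources used here. Per the submitters' processing notes, reads were handled with cutadapt 2.8, STAR 2.7.4a and SAMtools 1.20 among others. A TU was coding if RefSeq (Release 6, the same assembly) called a gene of it protein-coding. Genes were matched to RefSeq by symbol or unique synonym, which found 17626 of 17698 genes and all 8 pair-rule genes (7 by symbol, h by synonym).

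Distance is the number of free bases between TUs, 0 where they touch or overlap. Percentiles give the share of 12934 coding TUs with a lower value. The pair-rule genes and lists were chosen with earlier results of these data known. The text names all 8 genes, their overlapping and nearest TUs, run and Ten-m, the listed paralogs, isolated and extreme genes of other lists, and the 3 pairs of isolated TUs most like slp1 and slp2. No statistical test was run. Distances and overlaps were checked on simulated TUs against a direct count over every pair. Planned descriptions of promoter motifs and proteins were not run, since no sequences were used here. Titles gave the Pol II form and sex of each sample and the label Control or MOF. Python 3.11.15, numpy 2.4.6 and matplotlib 3.10.9 were used.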

Additional observations from a re-analysis of the deposited data

How the results depend on the processing

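Isolation held for the same 4 genes (h, odd, opa and slp2) at 250, 1000 and 5000 bp (17.6%, 6.24% and 1.91% of coding TUs) and with any overlap barred (8.72%), and for 5 genes, prd added, when only coding TUs counted as neighbours (12.1%). With coding TUs as neighbours and no length limit, alternatives chosen after seeing the data, it held for 8 of 8 at 500 bp (22.2% of coding TUs) and for 8 of 8 at 5000 bp (5.12%). A divergent start was found for 0 genes at 250 bp (14.0%) and for 1 gene, prd, at 1000 bp (36.6% of coding TUs). Opposite-strand overlap fell from 2 genes to 0 when the shared bases had to make up 50% or more of the shorter TU, and the share of coding TUs from 39.8% to 19.2%. The median distance to the nearest TU was 5984.5 bp on either strand, 11594.5 bp on the same strand and 9740 bp to coding TUs, and 5944 to 6025 bp without each gene in turn. The median length ran from 2346 to 2533 bp without each gene in turn and was 2533 bp with slp1 and slp2 as 1 locus. It exceeded 57.1% of single-gene coding TUs and 43.1% of coding TUs of at least 1000 bp. The median distance kept its rank, at 97.4% and 97.5% against 97.5%. No paired analysis was possible because no value per sample was analysed and no result comes from a test. Depth is unknown.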

Other observations

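Genes that act on or with the pair-rule genes are given as values. Of 6 regulators and cofactors, D (Dichaete, a Sox gene) and zld, which encodes the early genome activator Zelda, were isolated. D lay 7628 bp from its nearest coding TU, within the range of the pair-rule genes, and zld 1590 bp. ftz-f1, which encodes the nuclear receptor partner of Ftz, had a TU of 50706 bp that merged 3 genes and lay 123 bp from the next coding TU. gro, which encodes the corepressor of Hairy, was overlapped by a TU on the opposite strand and had 10 transcripts, and Stat92E had 11 transcripts and lay 21 bp from its neighbour. The JAK kinase gene hop had a divergent start at 347 bp.

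Maternal genes had a median distance of 297 bp to the nearest coding TU, between the reference median of 89 bp and the 9740 bp of the pair-rule genes. bcd and cad, which encode homeodomain factors of the anterior and posterior embryo, were isolated, at 1647 and 2677 bp from the nearest coding TU. tor lay 87 bp and tsl 266 bp from a coding TU, and nos was overlapped by one. The bHLH gene dpn, a relative of h, lay 243 bp from its nearest coding TU and was overlapped on the opposite strand, where h had 24747 bp and no overlap.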
